A study of Mus musculus with 12 samples.

Results

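The 10 genes described here are regulators of the trophectoderm and the simple keratins of that epithelium: Cdx2, Eomes, Elf5, Gata2, Gata3, Tfap2a, Tfap2c, Hand1, Krt8 and Krt18. They were taken by name from a list of known trophectoderm genes, out of 55401 genes in the count tables, by a rule that uses no measured value but was set with earlier results of these data known. RNA was sequenced from 3 lines of mouse totipotent potential stem (TPS) cells and 3 lines of extended pluripotent stem (EPS) cells, with 2 technical replicates per line, in 12 libraries. TPS cells are cells with features of the 2-cell embryo, held in a medium with the histone deacetylase inhibitor VPA, a GSK3 inhibitor, the DOT1L inhibitor EPZ004777 and the RARγ agonist CD1530. EPS cells are pluripotent cells with a potential widened toward extraembryonic lineages and were held in LCDM medium. Both kinds of cell grew on feeder cells, and no label names a genetic change in either. The sources used here do not give whether each sequenced TPS line came from EPS cells or from 2-cell embryos, nor whether the lines share an origin. Since medium and cell type changed together, their parts in a difference cannot be told apart.

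The trophectoderm is the outer epithelium of the blastocyst and the source of the placental trophoblast. In outer cells of the morula, YAP enters the nucleus and acts through TEAD4 to switch on Cdx2 and Gata3, whereas in inner cells Hippo signalling with AMOT and NF2 keeps YAP out. CDX2 represses the pluripotency factor gene Pou5f1, EOMES and ELF5 maintain trophoblast stem cells, and GATA and AP-2 (TFAP2) proteins bind with them at trophoblast genes. HAND1 is required for trophoblast giant cells, and KRT8 pairs with KRT18 to form the first keratin filaments of the embryo. Several of these genes are also used in other cells, for example Cdx2 and Eomes in early mesoderm, Hand1 in lateral mesoderm and Tfap2a in neural crest.

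Library totals ran from 13676051 to 21821707 counts, and the summed line totals from 29877215 to 38466294. The labels were checked on markers: all 8 tested 2-cell markers were called higher in TPS lines (median log2 fold change 9.90), and 6 of 9 pluripotent cell markers were lower and 0 higher. The 2-cell markers entered the test only through TPS lines, where they were high, so for them the check lies in the levels and not in the calls. Zscan4c, a gene of the 2-cell embryo, stood at 72.7, 89.4 and 106 CPM (counts over the scaled library size) in TPS lines 1 to 3 and at 0, 0.0589 and 0 CPM in EPS lines 1 to 3. Klf4, a naive pluripotency factor, stood at 90.7, 116 and 122 CPM against 775, 831 and 468 CPM. Levels of single genes are given in CPM scaled by TMM factors, each value being the sum of both technical replicates of a line. Tests were edgeR's quasi-likelihood test of 3 TPS against 3 EPS lines, with Benjamini-Hochberg adjustment over all 17468 tested genes.

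The 250 bases before the RefSeq start of Cdx2 and Gata3, and the part of them outside annotated exons for Krt8 and Krt18, are shown here, because Cdx2 and Gata3 are the members that passed the test and Krt8 and Krt18 are neighbours that were high in the same TPS line. Each runs 5′ to 3′ on the strand of its gene in build GRCm38.p6, and capitals mark matches to 5 motifs searched on both strands. The motifs were CATTCC for TEAD factors, GCCNNNGGC for AP-2, AGATAA for GATA factors, CTTTGA for TCF/LEF and AGGTCA as one repeat of the site of the retinoic acid receptor (RAR). The Cdx2 window is chr5:147307250-147307499 and the Gata3 window chr2:9878601-9878850, both on the minus strand.
Cdx2: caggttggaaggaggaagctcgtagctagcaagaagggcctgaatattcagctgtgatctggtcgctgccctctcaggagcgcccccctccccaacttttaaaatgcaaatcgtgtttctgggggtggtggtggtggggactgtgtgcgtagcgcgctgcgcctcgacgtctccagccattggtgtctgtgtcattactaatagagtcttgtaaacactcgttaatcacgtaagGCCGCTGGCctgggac
Gata3: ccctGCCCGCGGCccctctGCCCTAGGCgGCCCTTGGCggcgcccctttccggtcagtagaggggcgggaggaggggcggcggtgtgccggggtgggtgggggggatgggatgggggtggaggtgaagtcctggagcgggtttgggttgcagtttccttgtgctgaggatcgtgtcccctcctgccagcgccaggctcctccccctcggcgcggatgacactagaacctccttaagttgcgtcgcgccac
GENCODE M21 places the last 21 bases of the Cdx2 window in the first exon of that gene, and the whole Gata3 window in exons of the antisense gene Gm13256. The Gata3 window also lies inside the Gata3 gene of GENCODE M21, outside its exons, since that gene starts further upstream. For Krt8 the 110 bases of chr15:102004483-102004592 on the minus strand are given, and for Krt18 the 214 bases of chr15:102027966-102028179 on the plus strand. The 140 and 36 bases next to their RefSeq starts are exonic in GENCODE M21 and are left off.
Krt8: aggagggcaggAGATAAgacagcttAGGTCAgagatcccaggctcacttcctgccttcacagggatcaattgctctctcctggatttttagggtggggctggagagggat
Krt18: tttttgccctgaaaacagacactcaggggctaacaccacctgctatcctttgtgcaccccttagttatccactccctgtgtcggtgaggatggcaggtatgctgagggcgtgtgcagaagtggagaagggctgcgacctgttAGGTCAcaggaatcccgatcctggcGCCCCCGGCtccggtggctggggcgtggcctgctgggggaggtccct
The search took in the 300 bases from 250 before to 50 after each start. Cdx2 held 1 AP-2 match, its first base at −16, and Gata3 held 3 AP-2 matches at −246, −231 and −221. Krt8 held a GATA match at −239, and each keratin window held 1 RAR repeat, at −225 for Krt8 and at −108 for Krt18. Krt18 also held an AP-2 match at −83. The set of RefSeq windows used here covered 8 of the 10 members, without Tfap2c and Hand1. Of these 8, 4 held an AP-2 match, 2 a TEAD match and 2 a RAR repeat, and 1 each a GATA and a TCF/LEF match. The shares of all 32851 windows with a match were 16.6% for AP-2, 14.7% for TEAD, 16.3% for the RAR repeat, 11.2% for GATA and 16.0% for TCF/LEF. Some members have more than 1 start, so the 8 members have 11 windows. Of these 11 windows, 4 held an AP-2 match, 2 a TEAD match, 2 a RAR repeat and 1 each a GATA and a TCF/LEF match. A match is a description of letters and not of a bound site. In GC content the windows of Cdx2, Gata3, Krt8 and Krt18 were at 57.3%, 67.3%, 58.0% and 61.3%, beside a median of 52.7% over all windows. The observed over expected CpG ratio was 0.731 in Cdx2, 0.658 in Gata3 and 0.603 in Krt18 but 0.238 in Krt8, beside a median of 0.384.

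Of the 10 members, 9 had enough counts to be tested, and 2 of them, Gata3 and Cdx2, passed an adjusted p of 0.05 as higher in TPS lines, while 0 passed as lower. Over all tested genes 14.4% were called higher and 7.34% lower. Among EPS lines, Cdx2 and Gata3 reached the minimum count in EPS line 3 alone, and Hand1 in none. These genes thus entered the test through TPS lines, where they were high. In 4 tested members, Cdx2, Gata3, Hand1 and Krt18, the lowest TPS line exceeded the highest EPS line, which held for 23.6% of all tested genes. Library by library, Gata3 was the 1 of these 4 that stayed separate. In no member did the highest TPS line lie under the lowest EPS line, which held for 19.1% of tested genes. The median log2 fold change of the 9 tested members was 2.77, beside −0.00376 over all tested genes, and without TPS line 2 the members' median was 0.45. What set the members apart from one another was the level in single TPS lines: the keratins and Hand1 peaked in TPS line 2, Cdx2 peaked in TPS line 3, and Tfap2c was nearly level.

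**Figure D1:**
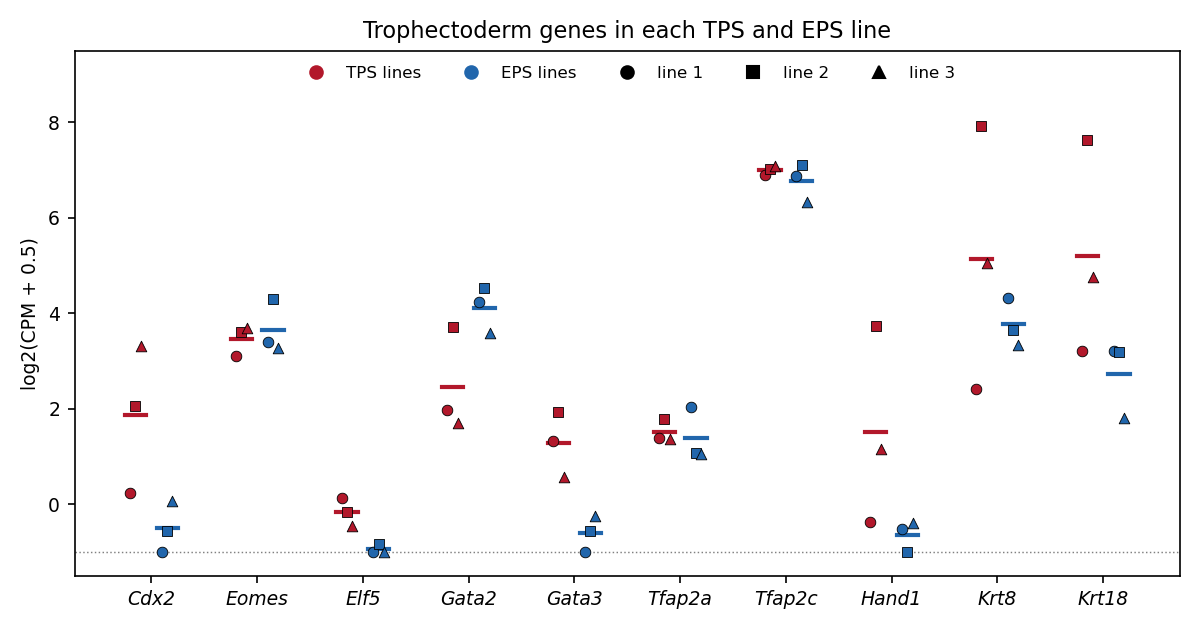
Level of each of the 10 genes in each line, as log2(CPM + 0.5). Red points are TPS lines and blue points EPS lines, symbols give the line number, short bars are group means and the dotted line is 0 CPM. Krt8, Krt18 and Hand1 are far higher in TPS line 2 than in the other TPS lines, while Tfap2c lies between 79.9 and 138 CPM throughout.

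Cdx2 lies at chr5:147300805-147307270 on the minus strand and encodes the homeobox factor that sets the trophectoderm apart from the inner cell mass. TPS lines 1 to 3 gave 0.675, 3.65 and 9.37 CPM (27, 141 and 295 counts) and EPS lines 1 to 3 gave 0, 0.177 and 0.541 CPM (0, 6 and 19 counts). The summed lines did not overlap, but the libraries did, since TPS line 1 had 0.405 CPM in its technical replicate 1 (7 counts) and EPS line 3 had 0.730 CPM in its technical replicate 2 (14 counts). The means were 4.57 ± 4.42 CPM (SD, n = 3) in TPS and 0.239 ± 0.276 CPM in EPS lines. The log2 fold change was 4.21 with a standard error of 1.22 and an edgeR adjusted p of 0.0448. The count of 0 in EPS line 1 allows up to 0.0979 CPM. The call was lost without TPS line 2, TPS line 3, EPS line 1 or EPS line 2, with adjusted p-values of 0.0678, 0.135, 0.0893 and 0.127 in edgeR. It was also lost with limma-voom on all 6 lines (adjusted p 0.0874), and the edgeR log2 fold change stayed between 3.13 and 5.58 with any 1 line left out. Per exon length, as TPM (counts over exon length, scaled to the same total in each line), Cdx2 reached 11.7 in TPS line 3, where Tfap2c stood at 103 TPM.

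Gata3, on chr2:9857078-9890034 (minus strand), encodes a zinc finger factor that acts beside CDX2 downstream of TEAD4. Its levels were 2.00, 3.29 and 0.985 CPM in TPS lines 1 to 3 and 0, 0.177 and 0.342 CPM in EPS lines 1 to 3. Every TPS line was above every EPS line, and TPS line 3, with the most Cdx2, had the least Gata3 of the TPS lines. The log2 fold change was 3.55 (SE 0.903, edgeR adjusted p 0.0301). Leaving out TPS line 1, TPS line 2 or EPS line 2 ended the call, with adjusted p-values of 0.0632, 0.0712 and 0.0912 in edgeR and log2 fold changes of 3.58, 3.06 and 3.52. limma-voom kept the call (adjusted p 0.0293).

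Gata2, the relative of Gata3 on chr6:88193891-88207032 that serves trophoblast and blood cells, went the other way. TPS lines 1 to 3 gave 3.40, 12.5 and 2.76 CPM and EPS lines 1 to 3 gave 18.4, 22.5 and 11.5 CPM. TPS line 2 overlapped the EPS lines and the other TPS lines lay below them. The log2 fold change was −1.49 (SE 0.585), with an edgeR adjusted p of 0.107. Without TPS line 2 it was −2.51 with an edgeR adjusted p of 0.0108. With all 6 lines the call also depended on the method, with an adjusted p of 0.0213 in DESeq2 and of 0.0197 in edgeR with no filter on low counts. The EPS line 1 value joins technical replicates that disagreed, at 8.62 and 25.1 CPM (108 and 456 counts). In that line 0.483% of 12009 well counted genes differed as much as 2-fold between the technical replicates. With the technical replicates numbered 1 alone the log2 fold change was −1.06, and with those numbered 2 alone −1.74.

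Within a line the balance of the GATA genes does not depend on the scaling of the library. The log2 ratio of Gata2 to Gata3, on TPM with 0.5 counts added because of the 0 in EPS line 1, was 0.321, 1.48 and 1.03 in TPS lines 1 to 3. In EPS lines 1 to 3 it was 9.70, 6.44 and 4.58, so the ranges did not overlap. The difference of the means was −5.96 with an exact two-sided permutation p of 0.1, the smallest that 3 against 3 lines allow, and 0.15 after adjustment over the 3 ratios computed. The value of EPS line 1 is set by the added 0.5 counts, and without that line the difference was −4.56. With any other line left out it lay between −7.13 and −5.65. EPS lines thus held far more Gata2 than Gata3 RNA, and in TPS lines the levels were closer.

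Eomes and Elf5 are the T-box and ETS factors of trophoblast stem cells. Eomes (chr9:118478212-118486132) gave 8.14, 11.7 and 12.4 CPM in TPS lines 1 to 3 and 10.02, 19.2 and 9.16 CPM in EPS lines 1 to 3. The groups overlapped, with a log2 fold change of −0.25 (SE 0.336, edgeR adjusted p 0.627). The technical replicates of EPS line 3 stood at 4.54 and 13.0 CPM, a 2.87-fold gap, in the line where 1.03% of well counted genes differed as much as 2-fold. Without EPS line 2 the direction turned, to a log2 fold change of 0.14.

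Elf5 (chr2:103411688-103450989) had the fewest counts of the members and was not tested, since too few lines passed the minimum count. It had 24, 15 and 7 counts in TPS lines 1 to 3, or 0.600, 0.389 and 0.222 CPM, and 0, 2 and 0 counts in EPS lines 1 to 3. Every TPS line was above every EPS line. Pooled over lines, 46 counts stood against 2, a ratio of CPM of 20.8 with an exact 95% interval of 5.45 to 177, which covers counting error only. With no filter on low counts, edgeR gave an adjusted p of 0.00936 for Elf5. In the filtered edgeR fits with 1 line left out, Elf5 entered 4 of 6, none of them without TPS line 1 or TPS line 2. It passed the filter only through TPS lines, where it was high. The adjusted p of 0.0347 to 0.0638 in those edgeR fits therefore decides nothing. The technical replicates of TPS line 2 held 13 and 2 counts, a 7.47-fold gap in CPM, so the order of the TPS lines is not resolved for Elf5.

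Tfap2c and Tfap2a encode AP-2 factors, the first also a factor of germ cells and of early cleavage stages, the second of neural crest and surface ectoderm. Tfap2c (chr2:172549593-172558622) gave 119, 129.5 and 135 CPM in TPS lines 1 to 3 and 117, 138 and 79.9 CPM in EPS lines 1 to 3. On TPM it was the most abundant regulator of the set in every line, between 57.2 and 103, and on CPM it spread 1.14-fold among TPS lines. Its log2 fold change was 0.19 (SE 0.201, edgeR adjusted p 0.523), and it turned to −0.01 without EPS line 3. Tfap2a (chr13:40715302-40738376) gave 2.12, 2.95 and 2.07 CPM in TPS lines 1 to 3 and 3.62, 1.59 and 1.57 CPM in EPS lines 1 to 3. The groups overlapped, with a log2 fold change of 0.08 (SE 0.429, edgeR adjusted p 0.913) whose sign changed without TPS line 2, EPS line 2 or EPS line 3. Their log2 TPM ratio was −6.18 ± 0.291 (SD, n = 3 lines) in TPS and −6.12 ± 0.711 in EPS lines, a difference of −0.05 with an exact permutation p of 0.9.

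Hand1 (chr11:57828705-57832818) encodes a basic helix-loop-helix factor of giant cells and of lateral mesoderm. TPS lines 1 to 3 gave 0.275, 12.7 and 1.72 CPM (11, 491 and 54 counts) and EPS lines 1 to 3 gave 0.196, 0 and 0.256 CPM (6, 0 and 9 counts). TPS line 1 lay barely above the EPS lines and TPS line 2 lay 46.3-fold above TPS line 1. Only 0.189% of tested genes had as wide a range of log2(CPM + 0.5) among TPS lines. The log2 fold change was 4.995 (SE 1.501) with an edgeR adjusted p of 0.0504, just outside the threshold. Hand1 entered the filtered edgeR fits only through TPS lines, where it was high, as every EPS line lay under the minimum count. The adjusted p-values of those fits therefore decide nothing. It had no edgeR fit with separate libraries, with single technical replicates or with at least 1 CPM in 3 lines. Hand1 was called with DESeq2 (adjusted p 0.0243), and in edgeR with upper quartile factors (0.0479), library size alone (0.0464) or no filter (0.00151). It was not called with limma-voom (log2 fold change 4.29, adjusted p 0.165). Without TPS line 2 it was 2.68 with an edgeR adjusted p of 0.148, and without TPS line 1 it was 5.55 with an edgeR adjusted p of 0.0265. Library by library the groups overlapped.

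Krt8 and Krt18 stand back to back on chromosome 15 with 23697 bases between them, Krt8 at chr15:101996698-102004482 and Krt18 at chr15:102028180-102032027. Krt8, the type II keratin of simple epithelia, gave 4.85, 243 and 32.8 CPM in TPS lines 1 to 3 and 19.6, 12.0 and 9.53 CPM in EPS lines 1 to 3. TPS line 1 lay below every EPS line, and the other TPS lines lay above. Krt18, its type I partner, gave 8.77, 198 and 26.5 CPM in TPS lines 1 to 3 and 8.72, 8.62 and 2.99 CPM in EPS lines 1 to 3. TPS line 1 exceeded the highest EPS line by a margin far smaller than the spread among EPS lines.

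The keratin difference between groups rested on TPS line 2. With all lines the log2 fold changes were 2.77 (SE 1.15, edgeR adjusted p 0.124) for Krt8 and 3.52 (SE 1.09, edgeR adjusted p 0.0550) for Krt18. With all lines Krt18 was called by DESeq2 (adjusted p 0.0175), and both were called in edgeR with no filter (adjusted p 0.0107 for Krt8 and 0.001085 for Krt18). limma-voom gave lower log2 fold changes, 1.37 (adjusted p 0.527) for Krt8 and 2.58 (adjusted p 0.2195) for Krt18. Without TPS line 2 they were 0.45 (edgeR adjusted p 0.703) and 1.38 (edgeR adjusted p 0.154). Without TPS line 1 both were called higher, at 3.33 (edgeR adjusted p 0.0321) and 4.05 (edgeR adjusted p 0.0255). Among TPS lines Krt8 spanned 50.2-fold and Krt18 22.6-fold, ranges of log2(CPM + 0.5) that 0.0343% and 0.126% of tested genes reached. Among EPS lines the spans were 2.05-fold and 2.92-fold, and 14.0% and 6.10% of tested genes were as wide there. The technical replicates of TPS line 2 gave 240 and 248 CPM for Krt8 and 196 and 200 CPM for Krt18, so the peak was present in both libraries of that line.

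The ratio of Krt8 to Krt18 RNA was lower in each TPS line than in each EPS line, with a narrow gap between TPS line 3 and EPS line 2. On TPM Krt8 stood at 6.87, 354 and 47.1 in TPS lines 1 to 3 and Krt18 at 16.9, 392 and 52.0. In EPS lines 1 to 3 Krt8 stood at 21.97, 15.8 and 12.8 TPM and Krt18 at 13.3, 15.4 and 5.48 TPM. The log2 ratio of Krt8 to Krt18 was below 0 in 3 of 3 TPS lines and above 0 in 3 of 3 EPS lines, with means of −0.53 ± 0.667 and 0.66 ± 0.598 (SD, n = 3). The difference was −1.19 with an exact two-sided permutation p of 0.1, the smallest possible, and 0.15 adjusted over the 3 ratios. With any 1 line left out it stayed between −1.504 and −0.81. Library by library the ranges overlapped, since technical replicate 1 of TPS line 3 had a log2 ratio of 0.0291 and technical replicate 2 of EPS line 2 one of 0.0155. A processed copy of Krt8, Krt8-ps, matches 48.1% of the longest transcript at 98.6% identity but held 53 counts over all libraries beside 11950 for Krt8. The Krt18 copy Gm5200, 90.5% identical over 88.2%, held 0 counts beside 9486 for Krt18. How the counting treated reads that fit both copies is not given in the sources used here.

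**Figure D2:**
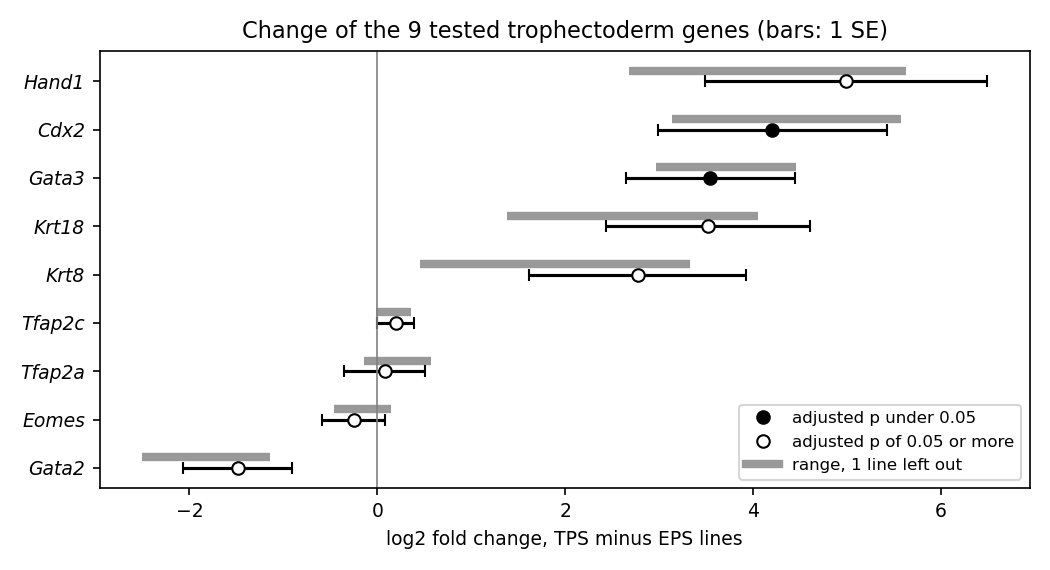
Log2 fold change, TPS minus EPS lines, of the 9 tested genes with 1 standard error from edgeR's quasi-likelihood fit. Filled points passed an adjusted p of 0.05, and grey bars span the values when any 1 line is left out. Krt8 falls to 0.45 at the low end of its grey bar, and Gata3 to 2.97.

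The order of the TPS lines was therefore not shared by the members. TPS line 2 was the highest of all 6 lines for 4 of the 10 members, Gata3, Hand1, Krt8 and Krt18, as it was for 14.6% of all tested genes. TPS line 3 was highest for Cdx2 and, on few counts, TPS line 1 for Elf5, and an EPS line was highest for the other 4. The 3 genes with the profile most like that of Cdx2 over the 6 lines were Sema6a, Cdx1 and Fam131b, with root mean square differences of centred log2(CPM + 0.5) of 0.386, 0.434 and 0.451. Cdx1, the paralog of Cdx2, gave 28.0, 81.3 and 100 CPM in TPS lines 1 to 3 and 7.44, 8.33 and 11.6 CPM in EPS lines 1 to 3. It rose with a log2 fold change of 2.93 (SE 0.457, edgeR adjusted p 0.00632).

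For Krt8 the most alike genes were Des, Hand1 and Krt18, at differences of 0.552, 0.675 and 0.729. For Krt18 they were Dlk1, 3830417A13Rik and Hand1, at 0.495, 0.608 and 0.630, with Krt8 next at 0.729. Des, which encodes the muscle filament protein desmin, gave 6.25, 87.5 and 17.8 CPM in TPS lines 1 to 3 and 15.6, 6.65 and 6.46 CPM in EPS lines 1 to 3. Dlk1, an imprinted gene, gave 3.15, 68.7 and 7.85 CPM against 1.44, 1.62 and 1.57 CPM. Each of these profiles has its highest value in TPS line 2, and the points share libraries, so the likeness is given as a description.

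**Figure D3:**
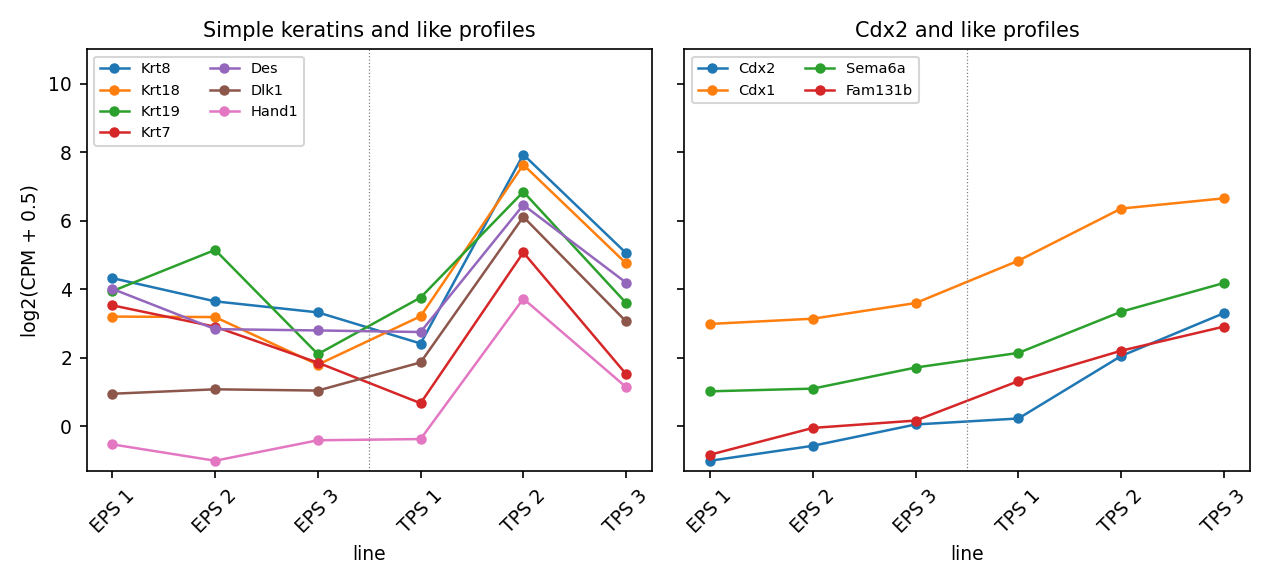
Level as log2(CPM + 0.5) in each of the 6 lines for genes with profiles like those of the keratins (left, with Krt7 and Krt19 as relatives) and of Cdx2 (right). Lines joining the points only guide the eye, since the cell lines have no order. The left set peaks in TPS line 2, where Krt8 reaches 243 CPM, and the right set in TPS line 3, where Cdx2 reaches 9.37 CPM.

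Of 13 other keratin and intermediate filament genes, 10 were tested, 3 were called higher and 1 lower, with a median log2 fold change of 1.00. Beside this count and those of the lists below stand 14.4% called higher and 7.34% lower over all tested genes. Krt20 rose by 4.10 (SE 0.874, edgeR adjusted p 0.0167) from at most 0.118 CPM in EPS lines to 0.550, 1.92 and 0.763 CPM in TPS lines 1 to 3. Krt20 entered the test only through TPS lines, where it was high, so that adjusted p decides nothing. Vim, the filament gene of mesenchymal cells and of fibroblasts, rose by 1.14 (SE 0.242, edgeR adjusted p 0.0165) and Lmnb1 of the nuclear lamina fell by 0.45 (SE 0.128, edgeR adjusted p 0.0435). The Lmnb1 call was lost whichever line was left out, and without TPS line 1 the count called higher fell from 3 to 1. TPS line 2 was the highest line for 14.6% of all tested genes and for 7 of these 13 genes. Among them Krt19, another simple epithelial keratin, stood at 13.0, 114 and 11.6 CPM in TPS lines 1 to 3 against 14.9, 34.97 and 3.81 CPM, and Krt7 at 1.10, 33.2 and 2.38 CPM against 11.1, 7.005 and 3.13 CPM. Krt7 and Krt19 did not pass the test (edgeR adjusted p 0.653 and 0.372), and they were chosen for naming after their values were seen.

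Upstream of Cdx2 and Gata3, the list of TEAD and Hippo genes had 14 tested members, 4 called higher and 2 lower, beside 14.4% and 7.34% of all tested genes. The median log2 fold change was 0.11. Tead4, the TEAD factor needed for the trophectoderm, fell by 1.97 (SE 0.181, edgeR adjusted p 0.00147), from 61.0, 81.4 and 65.5 CPM in EPS lines 1 to 3 to 15.3, 20.4 and 17.4 CPM in TPS lines 1 to 3. Amot, an angiomotin that holds YAP in the cytoplasm of inner cells, rose by 2.27 (SE 0.274, edgeR adjusted p 0.00296), from 4.41, 7.005 and 7.88 to 25.6, 37.6 and 29.9 CPM. Its relative Amotl1 rose by 1.19 (edgeR adjusted p 0.0104) and the Hippo activator gene Nf2 fell by 0.60 (edgeR adjusted p 0.0476). The Nf2 call was lost in 5 of 6 fits with 1 line left out, all but the one without TPS line 1, and the calls of Tead4, Amot and Amotl1 in 0 of 6. Without EPS line 2 the count called higher in this list fell from 4 to 2. In Tead4 and Amot the TPS lines lay close together and clear of every EPS line.

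Trophoblast stem cell genes outside the set were divided, with 3 of 13 called higher and 4 lower, beside 14.4% and 7.34% of all tested genes. The median log2 fold change was 0.43. Fgfr2, the receptor through which FGF4 maintains trophoblast stem cells, rose by 2.73 (SE 0.535, edgeR adjusted p 0.0128), whereas its ligand gene Fgf4 fell by 1.40 (SE 0.226, edgeR adjusted p 0.00701). Msx2 rose by 5.51 (SE 0.989, edgeR adjusted p 0.00961), with 1.60, 14.1 and 3.78 CPM in TPS lines 1 to 3 and at most 0.256 CPM in EPS lines. Msx2 entered the test only through TPS lines, where it was high, so that adjusted p decides nothing. Esrrb, a gene of both trophoblast and naive pluripotent stem cells, fell by 1.36 (SE 0.143, edgeR adjusted p 0.00219). The 4 called lower, which beside Esrrb and Fgf4 were Klf5 and Tbx3 (named after their values were seen), are also expressed in pluripotent cells.

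Of 18 genes of differentiated trophoblast, 11 could be tested, 3 were called higher and 1 lower, beside 14.4% and 7.34% of all tested genes. The median log2 fold change was 1.53. Gcm1, the regulator of syncytiotrophoblast, gave 2.20, 1.66 and 1.18 CPM in TPS lines 1 to 3 and 0.0326, 0 and 0 CPM in EPS lines 1 to 3, and it passed the test (edgeR adjusted p 0.00261). Gcm1 entered the test only through TPS lines, where it was high, so that adjusted p decides nothing. Peg10, an imprinted gene of the placenta, rose by 2.38 (SE 0.583, edgeR adjusted p 0.0265), and Plet1, a gene of early trophoblast progenitors, fell by 1.26 (SE 0.320, edgeR adjusted p 0.0297). With 1 line left out the calls of Peg10 and Plet1 held in 4 and 2 of 6 fits, and without EPS line 3 the count called higher fell from 3 to 1. Tpbpa of the spongiotrophoblast, Prl3b1 of secondary giant cells and later placenta, and Ctsq of sinusoidal giant cells had no count in any line, and were named for that. Of the 18 genes, 8 were highest in TPS line 2, as were 14.6% of all tested genes.

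Genes of the blastocoel epithelium did not move as 1 group. All 18 were tested, 3 were called higher and 5 lower, beside 14.4% and 7.34% of all tested genes. The median log2 fold change was −0.07. Cldn4, a tight junction claudin, fell by 2.16 (SE 0.384, edgeR adjusted p 0.00941), with 52.9, 132 and 58.8 CPM in TPS lines 1 to 3 and 395, 438 and 254 CPM in EPS lines 1 to 3. Aqp9, a channel for water and glycerol, rose by 5.31 (SE 0.552, edgeR adjusted p 0.00214), from at most 0.171 CPM to 3.42, 3.14 and 5.69 CPM. Aqp9 entered the test only through TPS lines, where it was high, so that adjusted p decides nothing. Tjp1, which encodes the junction scaffold ZO-1, rose by 0.54 (SE 0.158, edgeR adjusted p 0.0451), a call lost whichever line was left out. Of 16 paralogs of the members, 11 were tested, 5 were called higher and 0 lower. The count of 5 fell to 3 without TPS line 2 or EPS line 2, and to 2 without TPS line 3 or EPS line 1. The largest increase, above that of Cdx1, was that of Tbx21, a T-box gene, at 3.89 (SE 0.845, edgeR adjusted p 0.0178). The Tbx21 call held in 4 of 6 fits with 1 line left out. Tbx21 entered the test only through TPS lines, where it was high, so its adjusted p decides nothing. The largest decrease was that of Elf1, at −0.50 (edgeR adjusted p 0.163), which did not pass.

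**Figure D4:**
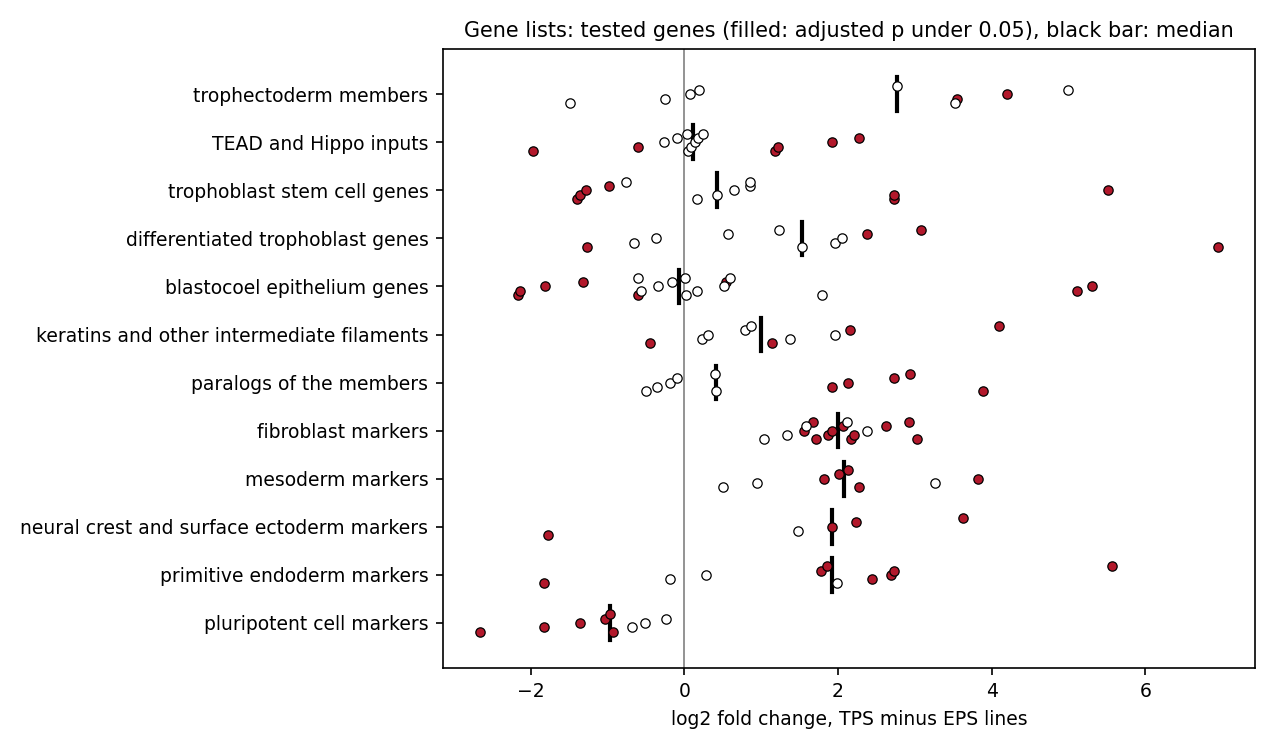
Log2 fold change, TPS minus EPS lines, of every tested gene in each list, with filled points for an adjusted p under 0.05 and a black bar at the list's median. The trophectoderm genes run from −1.49 for Gata2 to 4.995 for Hand1, and 11 of 16 fibroblast markers are filled. The 2-cell markers, with a median of 9.90, are off the scale and left out.

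Other cells that express these genes were looked at through their markers, and in bulk RNA fewer cells of a type and less RNA per cell cannot be told apart. Of 16 fibroblast markers, which feeder cells express, 11 were called higher in TPS lines and 0 lower, with 0 of the list at no count in either group. The count of 11 fell to 3 without TPS line 1 or EPS line 2, to 4 without TPS line 3 and to 7 without EPS line 1 or EPS line 3. Their summed level was 6401, 3545 and 3745 CPM in TPS lines 1 to 3 and 334, 1322 and 1417 CPM in EPS lines 1 to 3. Col1a1 stood at 2363, 1740 and 1386 CPM against 79.4, 433 and 378 CPM, and Pdgfrb at 42.6, 25.3 and 40.3 CPM against 4.21, 6.62 and 12.4 CPM. TPS line 2, with the most Krt8, Krt18 and Hand1, had the lowest fibroblast sum of the TPS lines. TPS line 1, with the highest sum, had the least Krt8, Krt18, Cdx2, Hand1, Eomes and Tfap2c of the TPS lines. It also had the most Elf5, though on few counts that left the order of the TPS lines unresolved. TPS line 3 had the least Gata2, Gata3 and Tfap2a. Twist2, a mesenchymal factor, rose by 3.03 (SE 0.755, edgeR adjusted p 0.0281) and was lowest in TPS line 2 among the TPS lines, at 3.47 CPM beside 19.3 and 12.9 CPM. The Twist2 call held in 1 of 6 fits with 1 line left out, and that of Col1a1 in 6 of 6.

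The summed level of the mesoderm markers was 9.79, 40.9 and 48.2 CPM in TPS lines 1 to 3 and between 10.3 and 13.4 CPM in EPS lines. Of 10 markers, 8 were tested, 5 were called higher and 0 lower, and the median log2 fold change was 2.08. The count of 5 called higher fell to 2 without TPS line 2, to 1 without TPS line 3 or EPS line 1, and to 3 without EPS line 2 or EPS line 3. Of the 10 markers, 6 were highest in TPS line 2, as were 14.6% of all tested genes. Fgf8, a signal of the primitive streak, rose by 3.82 (SE 0.711, edgeR adjusted p 0.0109), with 1.62, 10.8 and 7.18 CPM in TPS lines 1 to 3. T, the defining gene of the streak, did not pass (edgeR adjusted p 0.407) and stood at 1.95, 17.0 and 29.6 CPM in TPS lines 1 to 3 against 7.83, 6.80 and 10.5 CPM. It was named after its values were seen. Without T, the summed mesoderm level was 7.84, 23.9 and 18.5 CPM in TPS lines 1 to 3 and 2.45, 3.53 and 2.90 CPM in EPS lines 1 to 3, with every TPS line above the EPS lines. T was left out after its values were seen, and with T the sum of TPS line 1 lay under that of every EPS line.

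Of 10 primitive endoderm markers, 6 were called higher and 1 lower, with a median log2 fold change of 1.93. Cubn rose by 5.57 (SE 0.786, edgeR adjusted p 0.00457), Dab2 rose by 1.86 (edgeR adjusted p 0.0145) and the laminin gene Lama1 fell by 1.83 (edgeR adjusted p 0.00457). With 1 line left out the Dab2 call held in 4 of 6 fits, and those of Cubn and Lama1 in 6 of 6. The list's sum was 154, 115 and 136 CPM in TPS lines 1 to 3 and 196, 149.8 and 139 CPM in EPS lines 1 to 3. Lama1 set that direction, since the sum without it was 124, 64.3 and 101 CPM in TPS lines 1 to 3 and 19.9, 24.9 and 32.02 CPM in EPS lines 1 to 3. Lama1 was left out after its values were seen. The highest markers left in TPS lines 1 to 3 were Pdgfra, at 49.1, 12.5 and 31.2 CPM, and Dab2, at 51.4, 18.9 and 31.1 CPM. Both ranked the TPS lines as the fibroblast sum did, and the part of feeder cells in this sum was not tested. Of the 10 markers, 4 were highest in TPS line 2, beside 14.6% of all tested genes. Of 9 markers of neural crest and surface ectoderm, 5 were tested, 3 were called higher and 1 lower, and 6 of the 9 were highest in TPS line 2. The count called higher fell to 1 without TPS line 2, TPS line 3 or any 1 of the EPS lines, and the count called lower to 0 without TPS line 1, TPS line 2, EPS line 1 or EPS line 2. Pax3 rose by 3.62 (edgeR adjusted p 0.0264), Ets1 rose by 1.92 (edgeR adjusted p 0.0152) and Foxd3 fell by 1.77 (edgeR adjusted p 0.0273). With 1 line left out the calls of Pax3, Ets1 and Foxd3 held in 1, 5 and 2 of 6 fits. Pax3 entered the test only through TPS lines, where it was high, so its adjusted p decides nothing. Krt5 and Tfap2b of this list, named for their counts of 0, had no count in any EPS line and at most 0.337 and 0.441 CPM in TPS lines. The part of each of these cell types in the levels of the members was not tested.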

How the data were processed

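RNA-seq counts of 6 mouse cell lines, 3 TPS and 3 EPS, were analysed, each line with 2 technical replicates from oligo(dT)-selected paired-end libraries. The authors deposited whole-number counts per gene and library, not normalised. Per the labels, reads were mapped to GRCm38.p6 with STAR 2.7.3a, and the submitters' processing notes also name fastp 0.19.7. The counting program, annotation release and strand setting are not given in the sources used here. Antisense genes overlapping members held at most 39 counts over all libraries.

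Gene IDs without version were matched to GENCODE M21 (55141 of 55401). Technical replicates were summed per line. Their counts were further apart than sampling alone gives (chi-square over degrees of freedom 2.58 to 22.3), and were not treated as replicates. The main test was edgeR 4.0.16 (glmQLFit and glmQLFTest in R 4.3.3) with TMM factors and filterByExpr (minimum count 10, total 15), which left 17468 of 32608 genes with a count, and Benjamini-Hochberg adjustment at 0.05. A gene near 0 in EPS lines could enter the test only through TPS lines, where it was high, and its adjusted p is then a description. Among the named genes this held for Hand1, Gcm1, Krt20, Tbx21, Msx2, Aqp9, Pax3 and the 2-cell markers. Standard errors are the log2 fold change divided by the root of the F statistic. Profiles and figures use log2(CPM + 0.5), and TPM uses union exon lengths. Paralog ratios were compared by exact two-sided permutation tests (scipy 1.17.1), whose smallest p is 0.1. Copies of members were searched with blastn 2.17.0 (identity of at least 90% over at least 40% of the transcript). An upper limit for 0 counts is 3 counts, and intervals are at 95% and cover counting error only. The labels do not state that lines are independent derivations, so p-values measure the spread between these lines.

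The members and gene lists were chosen with earlier results of these data known. The rule named at most 4 genes from each list: the called gene with the highest mean CPM and the gene with the largest log2 fold change in each direction, with Col1a1 and Pdgfrb, and the 3 genes most like Cdx2, Krt8 and Krt18. A few further genes were named after their values were seen, as said beside them. On simulated data with 200 genes changed 4-fold in the comparison of TPS with EPS lines, at 1 dispersion of 0.106 for all genes, 188 were called, as were 8 of 16971 unchanged genes. Alternatives were DESeq2 1.42.0, limma-voom (limma 3.58.1), RLE and upper quartile factors, library size alone, other filters, libraries as separate samples, single technical replicates, a block for line number, and leaving out each line. Promoter windows and starts came from RefSeq (GRCm38.p6).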

Additional observations from a re-analysis of the deposited data

How the results depend on the processing

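The count of members called higher, 2 with the main settings, was 5 with DESeq2, 1 with limma-voom (Gata3), 4 with library size alone, 6 with no filter, 1 with at least 1 CPM in 3 lines, 4 with the 12 libraries as separate samples in edgeR and 6 in DESeq2, and 1 with technical replicate 1 alone. It ran from 0 to 4 with 1 line left out, being 0 without TPS line 2. The count called lower, 0 with the main settings, was 1 with DESeq2, with no filter, with separate libraries in either tool and without TPS line 2 (range 0 to 1); the member was Gata2 each time, with an unadjusted edgeR p of 0.0355 with the main settings. Treating technical replicates as samples counts each line more than once. Over all genes, 2509 higher and 1282 lower became 4067 and 3610 with separate libraries in edgeR and 5567 and 3802 in DESeq2, lower calls were 745 with library size alone, and leaving out a line gave 1617 to 2234 higher and 493 to 1047 lower. Library size alone moved the median log2 fold change of all genes to 0.14. The line numbers did not pair the samples (correlations of 0.0226, −0.121 and 0.0377). With the line number as a replicate block, 1 member was called higher, Cdx2, while Gata3 was lost (adjusted p 0.0726), and 1 lower, Gata2, and 721 genes were lower; Krt8 was then at 1.53, Krt18 at 2.67 and Hand1 at 3.61 (log2), none called. Leaving out 1 line gave log2 fold changes from −0.46 to 0.14 for Eomes, from −0.14 to 0.57 for Tfap2a and from −0.011 to 0.36 for Tfap2c, and Tfap2a was −0.25 with technical replicate 1 alone. The Tfap2a to Tfap2c ratio ran from −0.42 to 0.29 with 1 line left out. Depth limits Cdx2, Gata3, Hand1 and Elf5, which had 25, 18, 15 and 2 counts over all EPS lines. The causes of these shifts were not tested.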
